A study of Xenopus tropicalis with 18 samples.

Results

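Binding of thyroid hormone receptors (TR) to chromatin was compared between the intestines of TRαKO and WT Xenopus tropicalis tadpoles, both given hormone. The comparison took 6 of the 18 libraries of the series, 3 per genotype, and all 9867 genomic regions in which reads had been counted; 9342 of them held enough reads to be tested. Tadpoles reached stage 54 and were kept in 10 nM T3 for 18 h. TRαKO is the name in the labels and TRαLKO the name in the series text for the same group, and both refer to loss of TRα. Libraries of TRβKO tadpoles with the same hormone treatment (3), and of untreated TRαKO, TRβKO and WT tadpoles (3 each), are drawn on where they bear on the comparison. Chromatin was immunoprecipitated with an antibody to TR and sequenced, so each value is a level of binding and not of expression. The alleles, and whether guts of several tadpoles were pooled, are not given in the sources used here. The identity of the tissue and the loss of TRα cannot be checked from these counts, because regions at thra and thrb report receptor bound there and not the receptor genes' own state.

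Thyroid hormone receptors are nuclear receptors that sit on response elements as dimers with retinoid X receptors. Without hormone they recruit corepressor complexes, and with T3 they recruit coactivators and histone-modifying enzymes. TRα is made from thra and TRβ from thrb, and thrb is itself a direct T3 target in tadpoles. In amphibian metamorphosis T3 drives the larval intestine to lose its epithelium and to form the adult one from stem cells.

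Levels are given as CPM, reads per 1000000 of the tags that remained after the duplicate filter, with mean ± SD over 3 libraries. TRαKO libraries with T3 were deeper than WT libraries with T3, at 6.03 to 8.02 M tags against 2.29 to 2.53 M tags, and held 7.57% to 10.9% redundant tags against 21.4% to 22.4%. Their part in the results was not tested beyond the alternatives given at the end. Alternatives named beside results are other scalings (TMM, DESeq2, or library sizes of all tags before the duplicate filter), a stricter filter (at least 10 reads in every library of a group compared), a fit of only the libraries compared, thinning of every library to the shallowest, and leaving out a library. The chi-square per region between replicates of a group was 1.86 to 2.28 times that of counting error for independent reads, so no library's counts are a copy of another's. Reads that are not independent raise this value too. It therefore cannot tell repeated sequencing of 1 sample from separate samples. Libraries held more regions with exactly 2 reads than with 1 (70 against 34 in TRαKO replicate 1 and 1192 against 552 in WT replicate 1, with T3). In that WT library regions with 0 reads (1129) also outnumbered those with 1, whereas the TRαKO library had only 26 with 0. Reads may thus not be independent molecules, and counting intervals cover counting error only. The series text calls the replicates biological, and every p-value rests on the spread among these libraries only. In a tissue, fewer cells with bound receptor and less receptor bound per cell cannot be told apart.

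With T3, receptor binding was lower in TRαKO than in WT intestine at 682 regions (7.3% of those tested) and higher at 101 (1.08%), together 783 or 8.38%. These calls had a Benjamini-Hochberg adjusted p under 0.05 in edgeR's quasi-likelihood test. The median over all tested regions was close to 0, at 0.04 on the log2 scale (TRαKO minus WT). The median lower region stood at 35.1% of its WT level (interquartile range 29.0% to 40.9%), with counts not corrected for background. More than 30 reads over the 3 TRαKO libraries were held by 617 of the 682, and by 6627 of the 8559 regions not called. Median levels in TRαKO with T3 were 4.20 CPM in the lower regions and 1.97 CPM in those not called. No TRαKO library with T3 had a peak at 225 of the 682, and no WT library with T3 had one at 102. At 658 of the 682 every TRαKO library lay below every WT library, which held for 12.8% of all tested regions. The lower regions touched 505 genes, 414 of them with a gene symbol. By position, 8.14% of tested regions in a gene body, 9.58% of those within 10 kb of a gene and 4.41% of those farther away were lower.

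**Figure D1:**
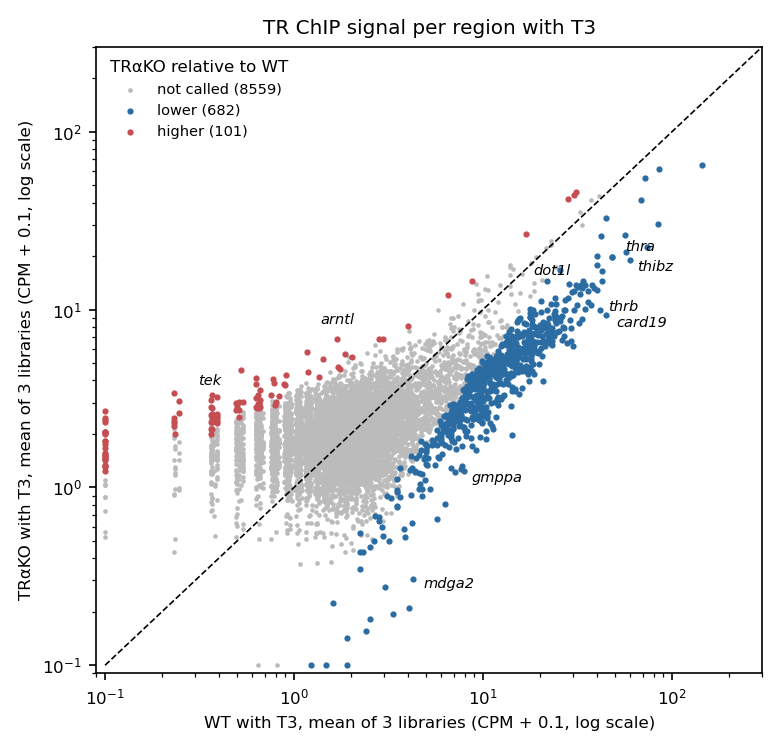
Mean level of each of the 9342 tested regions in TRαKO with T3 (vertical axis) against WT with T3 (horizontal axis), each a mean of 3 libraries in CPM plus 0.1 on a log scale; the dashed line marks equal levels. The 682 lower regions (blue) lie along a band below the line at well-bound regions such as thibz, thrb and card19, whereas most of the 101 higher regions (red) lie at the left, where WT had few or no reads.

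Binding fell at thibz, thrb, thra and dot1l, genes known to respond to T3 in tadpoles, and some binding was left at each. At thibz, the gene of a leucine zipper transcription factor switched on by T3 in tadpoles (chromosome 3, 140193300 to 140193863, in the gene body), TRαKO libraries with T3 held 20.3, 19.9 and 22.6 CPM, against 53.0, 58.9 and 59.9 CPM in WT libraries with T3. Both genotypes were tight, and the groups were far apart. The level was 36.5% of WT, a log2 difference of -1.45 ± 0.16 (SE, adjusted p = 4.94e-11). Untreated intestines averaged 5.38 CPM in TRαKO and 2.71 CPM in WT, so binding was above the untreated level in both genotypes with T3.

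The receptor genes themselves had lower binding at all 7 of their tested regions. At the thrb region on chromosome 6 at 46932899 (to 46933467, gene body) the 3 TRαKO libraries held 12.3, 11.7 and 14.3 CPM, against 41.0, 39.9 and 39.8 CPM in WT. The highest TRαKO library was well under the lowest WT library. The difference was -1.66 ± 0.18 (log2, SE, adjusted p = 4.08e-11). A thrb region at 46698245 averaged 4.45 ± 0.559 CPM in TRαKO and 15.5 ± 2.98 CPM in WT, and one at 46899379 averaged 6.60 ± 0.405 CPM in TRαKO and 13.7 ± 0.694 CPM in WT. These 2 regions stood at 28.7% and 48.2% of WT, and the first region at 31.8%.

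At thra, which encodes TRα, the main region (chromosome 10, 9096138 to 9097271, gene body) held 18.1, 19.9 and 21.1 CPM in the TRαKO libraries, against 46.6, 49.0 and 49.0 CPM in WT. It was lower by a log2 difference of -1.29 ± 0.17 (SE, adjusted p = 1.25e-08). The other thra regions, at 9098324, 9104506 and 9147455, stood at 44.0%, 35.9% and 41.8% of WT. The last pair had few reads, and their calls depended on single libraries and on the scaling. With library sizes of all tags neither was called (adjusted p = 0.0576 at 9104506 and 0.0969 at 9147455), and with TMM the region at 9147455 was not (adjusted p = 0.0594). Without TRαKO replicate 3 or WT replicate 1 the region at 9104506 was not called (-1.15, adjusted p = 0.13 and -1.16, adjusted p = 0.159). The region at 9147455 was not called without TRαKO replicate 2 (-0.98) or 3 (-1.15), nor without WT replicate 2 (-1.25) or 3 (-0.78), with adjusted p between 0.0572 and 0.342.

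**Figure D2:**
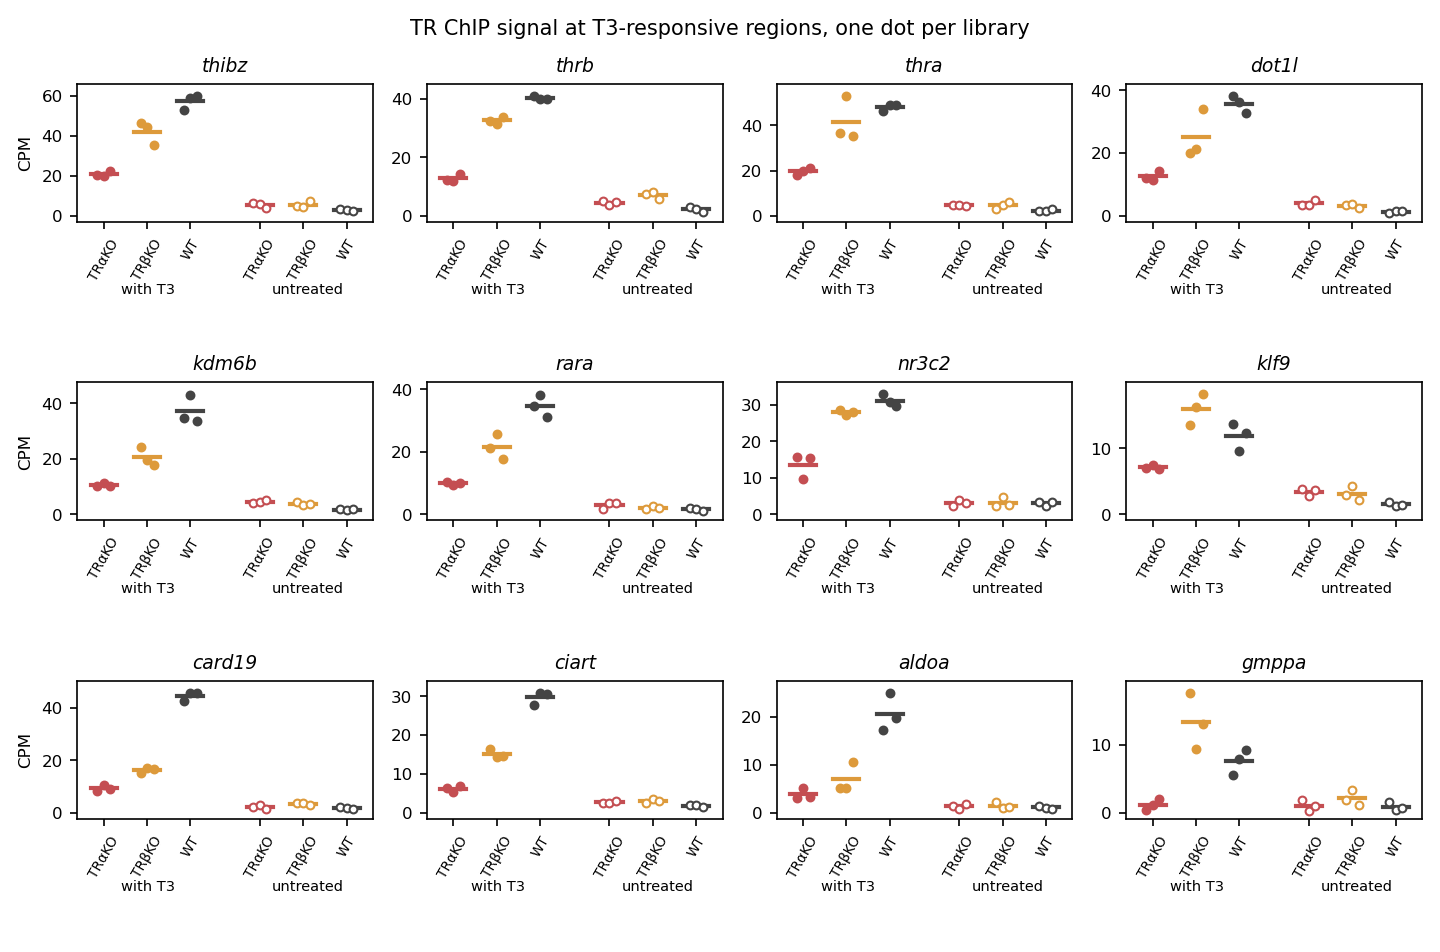
TR binding in CPM at 12 regions, one panel per gene, with each library as a point (filled with T3, open untreated), the line at the mean of 3, and TRαKO, TRβKO and WT side by side. With T3 the TRαKO points lie below the WT points in every panel, including klf9, whose difference did not pass the test; in the thibz panel TRαKO averaged 20.9, TRβKO 41.9 and WT 57.3 CPM.

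Genes of enzymes that act on histones, which open or close chromatin, were among the lower ones. At dot1l, the gene of the histone H3 lysine 79 methyltransferase, binding averaged 12.6 ± 1.49 CPM in TRαKO, 25.2 ± 7.76 CPM in TRβKO and 35.8 ± 2.71 CPM in WT with T3 (TRαKO minus WT -1.51 ± 0.20, log2, SE; adjusted p = 2.51e-08). The kdm6b gene, which encodes a histone H3 lysine 27 demethylase, had 5 tested regions, of which 2 fell. The region at 147034252 on chromosome 3 held 10.2, 11.1 and 10.1 CPM in TRαKO, against 34.5, 43.1 and 33.7 CPM in WT, and that at 147042032 averaged 4.05 CPM in TRαKO and 11.6 CPM in WT. The other 3 ranged over 1.48 to 3.73 CPM in TRαKO and 1.25 to 7.06 CPM in WT and were not called. At ezh2, which encodes the opposing lysine 27 methyltransferase, the region at 55124943 on chromosome 6 stood at 31.9% of WT (adjusted p = 4.24e-07). A second ezh2 region, at 55124177, was lower at 52.8% of WT (-0.92, log2), but lost its call in 7 of 14 alternatives. Those were TMM, library sizes of all tags, and leaving out any of the 3 TRαKO libraries or WT replicate 2 or 3. The kdm7a region at 5276821 on chromosome 3, at the gene of another histone demethylase, averaged 8.71 ± 1.86 CPM in TRαKO and 33.5 ± 3.38 CPM in WT.

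Over the list of receptor coregulators and histone enzymes, 19 of 45 tested regions were lower and 0 higher (list median log2 difference -0.44, against 0.04 over all regions and 7.3% lower). This list and all others below were chosen with earlier results of these data known, so their shares are no independent evidence of enrichment. Besides the genes above, the lower regions included the coactivators crebbp (4.18 CPM in TRαKO and 13.7 CPM in WT) and ncoa1 (2.28 CPM in TRαKO and 7.01 CPM in WT), and hdac2, a histone deacetylase (3.94 CPM in TRαKO and 13.1 CPM in WT). Genes of coactivators and of a deacetylase were thus both among the lower ones. Among chromatin remodellers 3 of 14 regions were lower (median -0.26), with smarcd2, a subunit of the BAF complex, at 2.04 CPM in TRαKO and 11.1 CPM in WT.

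Other nuclear receptor genes were in the lower set as well. The retinoic acid receptor gene rara had both of its tested regions lower, at 28.8% and 27.5% of WT; the one at 8790066 on chromosome 10 held 10.3, 9.45 and 10.1 CPM in TRαKO, against 34.5, 38.3 and 31.1 CPM in WT. At nr3c2, the mineralocorticoid receptor gene, 1 of 2 regions was lower. That region, at 57297676 on chromosome 1, averaged 13.6 ± 3.45 CPM in TRαKO and 31.2 ± 1.61 CPM in WT (-1.20 ± 0.21, log2, SE, adjusted p = 7.95e-06). The second, at 57412345, averaged 4.17 CPM in TRαKO and 5.24 CPM in WT and was not called. A region at rxrb, the gene of a dimer partner of TR, averaged 6.53 CPM in TRαKO and 21.1 CPM in WT. Of the 25 tested regions at nuclear receptor genes 13 were lower and 0 higher, against 7.3% lower over all regions, with a median of -1.05; 7 of those 13 are the thra and thrb regions. These same 7 were the lower ones among 8 regions of hormone transport and metabolism genes (median -1.26), and the eighth, at slco4a1, lay the other way without a call (1.89, log2, adjusted p = 0.0612). It was called higher with library sizes of all tags, with DESeq2, with the stricter filter, without TRαKO replicate 1 and without WT replicate 2 (adjusted p between 0.034 and 0.0427).

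Not every T3 response gene passed. The klf9 gene encodes a zinc finger factor and is among the first T3 targets in vertebrates. Its region at 129859818 on chromosome 1 held 6.98, 7.48 and 6.80 CPM in TRαKO, against 13.7, 9.49 and 12.2 CPM in WT. The groups did not overlap, but the difference of -0.73 ± 0.28 (log2, SE) had an adjusted p of 0.0986. It passed only in the fit of the 6 libraries alone (adjusted p = 0.0309). A second klf9 region, at 129851578, averaged 2.98 CPM in TRαKO and 4.69 CPM in WT and overlapped between genotypes. Over the whole list of direct T3 response genes 23 of 42 tested regions, at 14 of 20 genes, were lower and 0 higher, against 7.3% lower over all regions, with a median of -1.18. The list was chosen with earlier results of these data known and is no independent evidence of the direction. It also includes klf13, a relative of klf9 (5.57 CPM in TRαKO and 19.5 CPM in WT), nfib and nfic, genes of nuclear factor I proteins, and tet3 and dnmt3a, whose products remove or add DNA methylation.

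**Figure D3:**
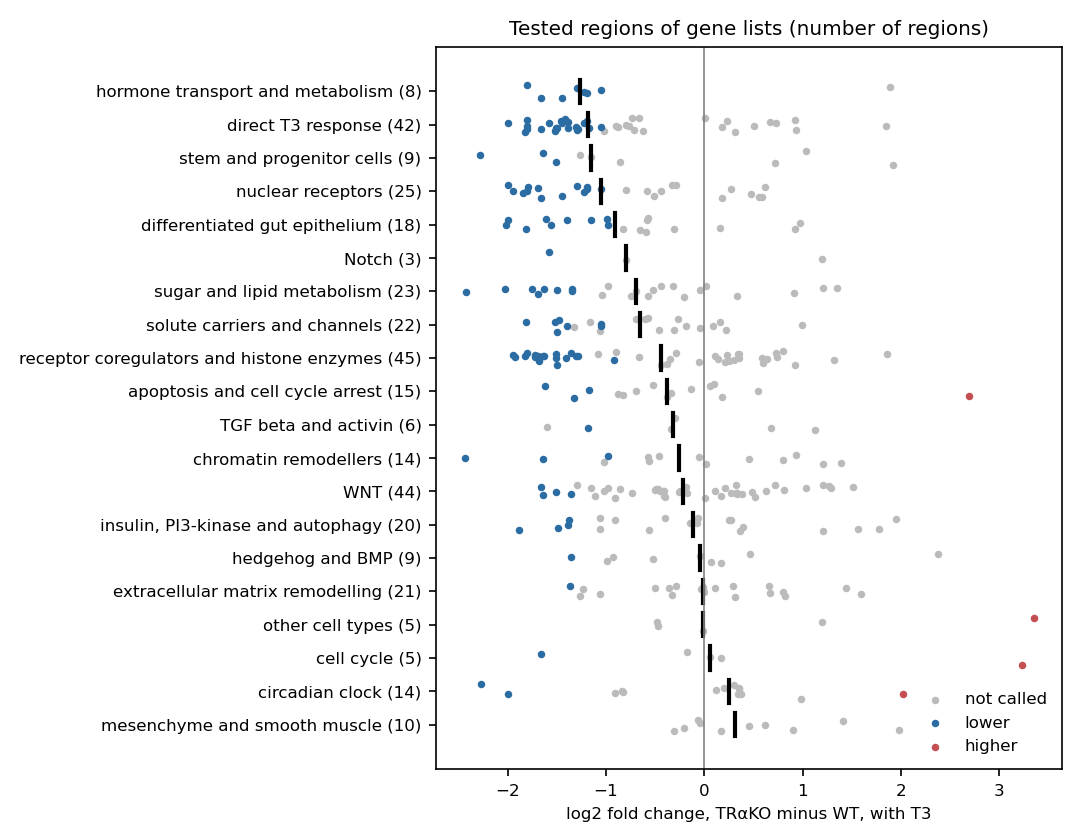
Log2 difference (TRαKO minus WT, with T3) of each tested region of 20 gene lists, with the number of regions in parentheses, the black bar at the list median, and called regions in blue (lower) or red (higher). Lists of T3 response, hormone transport, nuclear receptor, stem cell and epithelial genes have medians between -1.26 and -0.91, and mesenchyme and smooth muscle genes, at 0.31, have no called region.

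Gut epithelium genes contributed 9 lower regions of 18 tested and none higher (median -0.91), against 7.3% lower over all regions. At dpp4, the gene of a peptidase of the brush border, TRαKO libraries held 7.73, 10.4 and 8.63 CPM, against 14.9, 19.4 and 18.8 CPM in WT, 50.5% of WT (-0.98 ± 0.24, log2, SE, adjusted p = 0.00302). The endoderm factor gata5 had 2 of 4 regions lower, of which that at 4922621 on chromosome 10 averaged 3.56 ± 1.08 CPM in TRαKO and 14.1 ± 1.51 CPM in WT. Regions at slc2a2, a glucose transporter gene (2.31 CPM in TRαKO and 8.17 CPM in WT), and at amn, a part of the vitamin B12 receptor, were lower too. Both regions of cdx1, an intestinal homeobox gene, were lower, at 33.3% and 50.1% of WT. These calls were fragile. The cdx1 region at 21125770 was not called without WT replicate 3 (-1.25, adjusted p = 0.0744), and that at 21140387 was not called without TRαKO replicate 2 (-0.99) or 3 (-0.93) or WT replicate 1 (-0.86) or 2 (-0.97), nor with library sizes of all tags (-0.78, adjusted p = 0.0939). The single region of ihh, a hedgehog ligand made by gut epithelium, averaged 3.65 ± 1.09 CPM in TRαKO and 6.91 ± 2.64 CPM in WT and was not called (adjusted p = 0.255).

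Binding also fell at genes of metabolism and transport. At aldoa, a glycolytic aldolase gene (chromosome 9, 2467068 to 2467594), TRαKO libraries held 2.99, 5.22 and 3.32 CPM, against 17.3, 24.9 and 19.7 CPM in WT, a 5.36-fold lower level. The acyl-CoA synthetase genes acsl4 and acsl5, which activate long-chain fatty acids, averaged 7.86 and 3.06 CPM in TRαKO, against 26.5 and 12.4 CPM in WT. Binding near slc16a1, a lactate transporter gene, averaged 11.6 ± 2.09 CPM in TRαKO and 24.0 ± 2.80 CPM in WT (-1.05 ± 0.22, log2, SE, adjusted p = 0.000379). In all, 8 of 23 sugar and lipid regions (median -0.69) and 7 of 22 solute carrier and channel regions (median -0.65) were lower and none higher, against 7.3% lower over all regions. For insulin, PI3-kinase and autophagy genes it was 4 of 20, at insr, foxo3, pik3r1 and ulk1. The median of that list was -0.11, but 0.10 with library sizes of all tags and 0.14 without WT replicate 3. The insulin receptor gene insr had 5.24 CPM in TRαKO and 14.9 CPM in WT, and the autophagy kinase gene ulk1 had 7.25 CPM in TRαKO and 18.8 CPM in WT.

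Of 44 tested regions of WNT genes 4 were lower and 0 higher, or 9.09% against 7.3% of all regions, with a median of -0.22. One was at znrf3, a ubiquitin ligase gene that restrains WNT signalling. Its region at 166191911 on chromosome 1 averaged 9.04 ± 1.68 CPM in TRαKO and 25.8 ± 6.26 CPM in WT (adjusted p = 6.68e-07), with no overlap between the libraries. The other 2 znrf3 regions averaged 2.72 and 2.29 CPM in TRαKO, 1.70 and 1.13 CPM in WT, and were not called. At lgr4, a receptor that enhances WNT signals in stem cells, the region at 21104614 on chromosome 4 was lower (2.42 CPM in TRαKO and 7.52 CPM in WT), but not without TRαKO replicate 1 (-1.52, adjusted p = 0.0506). Neighbouring lgr4 regions at 21091727 and 21092281 stood at 44.7% and 55.7% of WT and were not called, although the first was without WT replicate 2 (-1.41, adjusted p = 0.0272), with the stricter filter (adjusted p = 0.0329) and with only the libraries compared (adjusted p = 0.00753). Among the remaining signalling lists, nrarp (a Notch feedback inhibitor, 33.2% of WT), acvr1b (an activin receptor) and cdon (a hedgehog coreceptor) had the only calls, 1 lower region of 3, 6 and 9 tested (7.3% over all regions). The acvr1b call was lost without WT replicate 3 (-0.89, adjusted p = 0.0869). Among stem and progenitor cell genes 3 of 9 regions were lower, at wwtr1, lgr4 and znrf3, with a list median of -1.16, against 7.3% lower over all regions.

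Among 15 regions of apoptosis and arrest genes 3 were lower, at gadd45a (a growth arrest gene), fas and cdkn1a, and 1 was higher, at birc5, which encodes the survival protein survivin (39 reads over the TRαKO libraries and 2 over WT). The shares over all regions were 7.3% lower and 1.08% higher. No region of that list was called higher with DESeq2, without the low-count filter, with the stricter filter, with only the libraries compared, with the replicate block or after thinning, nor without TRαKO replicate 1 or 3 or WT replicate 1 or 3. The cdkn1a gene, which encodes the cycle inhibitor p21, averaged 7.23 ± 0.459 CPM in TRαKO and 16.3 ± 2.16 CPM in WT. The death receptor gene fas averaged 2.97 ± 1.24 CPM in TRαKO and 7.61 ± 2.67 CPM in WT, and its call was lost under TMM scaling, all-tag scaling and thinning, and without TRαKO replicate 2 (-1.22) or 3 (-1.12) or WT replicate 2 (-1.37) or 3 (-1.03). Of 5 cell cycle regions cdc6, a replication licensing gene, was lower (5.15 CPM in TRαKO and 16.2 CPM in WT) and rb1, a brake on entry to S phase, was higher. The rb1 region had 57 reads over the TRαKO libraries and 2 over the WT libraries, a ratio per tag of 9.85 with a 95% counting interval of 2.61 to 83.3. It was not called without WT replicate 1 (2.67, adjusted p = 0.0773) or 3 (2.72, adjusted p = 0.0653).

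Of 14 tested regions at clock genes 2 were lower and 1 higher, against 7.3% and 1.08% over all regions. The region near ciart, a circadian repressor gene, had 6.23, 5.22 and 6.97 CPM in TRαKO, against 27.7, 30.8 and 30.6 CPM in WT, or 20.7% of WT (adjusted p = 1.54e-12). At nr1d1, which encodes the repressor REV-ERBα, binding averaged 4.27 ± 0.89 CPM in TRαKO and 17.3 ± 1.81 CPM in WT. The opposite was seen near arntl, the gene of the clock activator BMAL1 (chromosome 4 at 6828341). There TRαKO libraries held 4.99, 6.21 and 9.13 CPM, against 2.81, 1.98 and 0 CPM in WT, a log2 difference of 2.02 ± 0.46 (SE, adjusted p = 0.001). The order at arntl was also seen without hormone, at 5.54 CPM in untreated TRαKO and 2.54 CPM in untreated WT, and TRβKO was near TRαKO at 5.41 CPM with T3. The remaining 11 of 14 clock regions were not called, and the list median was 0.25.

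Extracellular matrix genes had 1 of 21 regions lower, at adam10, against 7.3% lower over all regions, and mesenchyme and smooth muscle genes had 0 of 10 called by edgeR, 0 at an unadjusted p under 0.05 and 0 by DESeq2. Among 5 regions at marker genes of blood, endothelium, macrophages and neurons only tek, an endothelial receptor gene, was called. It had 61 reads over the TRαKO libraries and 2 over the WT libraries (ratio per tag 10.5, 95% counting interval 2.80 to 89.0), while untreated levels were 2.93 CPM in TRαKO and 2.37 CPM in WT. Over all lists, with a region in several lists counted once, 85 of 318 tested regions (26.7%) were lower and 4 were higher. The shares over all regions were 7.3% and 1.08%. The lists were chosen with earlier results of these data known, so their excess over all regions is no independent evidence. List medians of -0.32 and below kept their sign under TMM, DESeq2 and all-tag scaling. Those of WNT, insulin, hedgehog and BMP, matrix, chromatin remodeller and other-cell-type genes turned positive under at least one of these.

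How the loss related to the amount of binding was examined with levels in TRβKO with T3. These libraries are in neither group compared, but they share the fit that set the filter and the spread. TRβKO denotes loss of TRβ, so the rank follows binding in tadpoles without that receptor and not in WT. The 100 regions with the highest TRβKO level per kb (34.1 CPM per kb and above) include the 7 mitochondrial regions described below, all lower. Of these 100 regions, 95 were lower in TRαKO than in WT and none higher, against 7.3% lower over all regions. Their median log2 difference was -1.32, and their summed CPM stood at 43.2% of WT. For ranks 101 to 300 it was 148 of 200, for ranks 301 to 600 185 of 300, and for ranks 601 to 1000 116 of 400, with medians of -1.27, -1.27 and -0.76. For ranks 1001 to 2000, 2001 to 4000 and 4001 to 9342 it was 44 of 1000, 30 of 2000 and 64 of 5342, with medians of 0.20, 0.24 and 0.07. Summed levels for the first 3 groups stood at 43.2%, 43.8% and 43.3% of WT, while the level per kb fell from group to group. The first sum includes the mitochondrial regions, which stood at 43.8% to 76.4% of WT. No sum without them was computed, so the likeness of these sums is not one of nuclear binding alone.

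**Figure D4:**
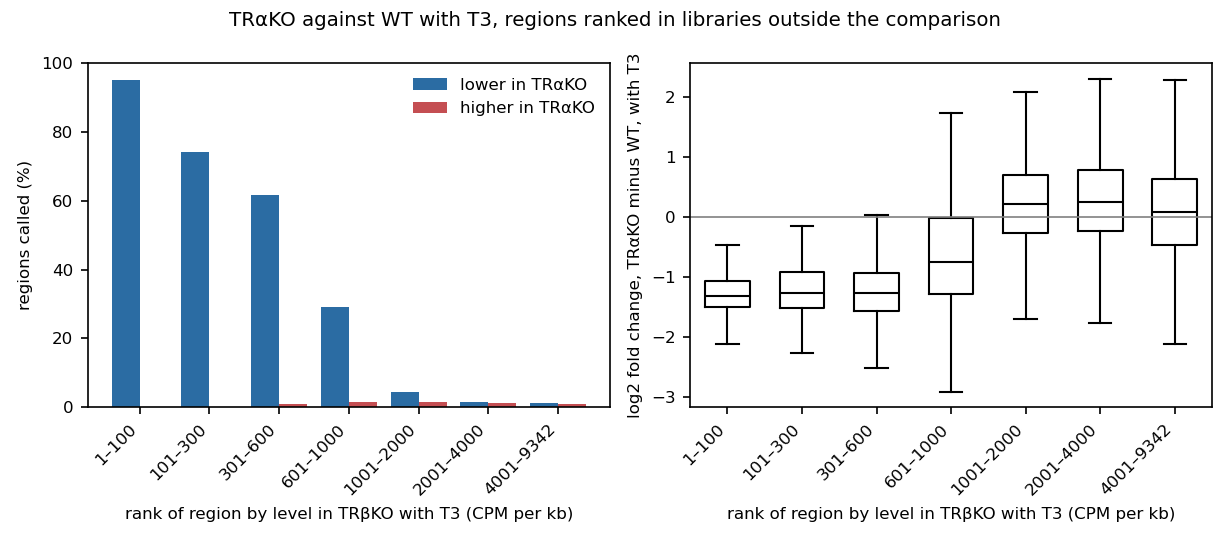
Tested regions ranked by their level in TRβKO with T3 (CPM per kb, highest first), with the percentage called lower (blue) or higher (red) in TRαKO against WT on the left and the log2 difference on the right (box, quartiles; line, median; whiskers, values within 1.5 times the box height). The lower share declines with rank, 95% in the first group and 74.0% in the next, while medians of the first 3 groups stay between -1.32 and -1.27. The first group includes the 7 mitochondrial regions.

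Of the 5 best-bound regions that were not lower, 4 carry or adjoin a gene. At LOC101731736, a locus without a symbol, the level was 35.3 ± 1.97 CPM in TRαKO, 35.7 ± 4.81 CPM in TRβKO and 32.4 ± 5.35 CPM in WT with T3, and 38.2 CPM in untreated TRαKO and 23.6 CPM in untreated WT. That region held reads in all groups and was not called. The others, at kif3a (a kinesin motor, 8.41 CPM in TRαKO and 10.6 CPM in WT), near nfic at 98166058 (6.42 CPM in TRαKO and 9.90 CPM in WT), at bend7 (6.14 CPM in TRαKO and 10.8 CPM in WT) and at a region with no gene within 10 kb on chromosome 1 at 129877733 (4.85 CPM in TRαKO and 8.39 CPM in WT), had lower means in TRαKO without a call. In nfic 2 other regions were lower, at 38.2% and 37.4% of WT.

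Several of the lower regions stood out by the size of the fall. By the rule for named regions, the largest log2 differences at symbols with sufficient level were at mdga2 (-4.30), nrbp2 (-3.08), gmppa (-2.75) and znf687 (-2.57). The gmppa region, at the gene of a regulator of GDP-mannose synthesis, held 0.374, 1.13 and 1.99 CPM in TRαKO, against 5.62, 7.91 and 9.19 CPM in WT, with no overlap. The nrbp2 call was lost without WT replicate 3 (-2.56, adjusted p = 0.0686). Among regions with many reads, card19, the gene of a caspase-recruitment-domain protein (chromosome 4 at 151033176), held 8.10, 10.6 and 9.13 CPM in TRαKO, against 42.6, 45.5 and 45.5 CPM in WT. This 4.80-fold lower level had the tight replicates of a deep region (-2.26 ± 0.20, log2, SE, adjusted p = 8.09e-15). The cables2 region averaged 9.89 ± 0.0554 CPM in TRαKO and 41.3 ± 4.62 CPM in WT. Near cyp26b1, which encodes a retinoic acid-degrading enzyme, the level was 19.0% of WT, and near wwtr1, which encodes the Hippo pathway effector TAZ, it was 20.5%.

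Some genes held several called regions. All 3 regions of sgms1, a sphingomyelin synthase gene, were lower, at 21.0% to 41.4% of WT, and all 3 of foxo6 at 29.0% to 50.9%. The babam2 gene had 4 of 8 regions lower, and spidr 3 of 5. Uncalled regions of a gene with lower regions could lie the other way: the highest log2 difference was 0.98 at gata5 and 0.92 at kdm6b. At lsamp, a neural adhesion gene with 25 tested regions, 1 region was lower (42.8% of WT) and 1 higher (527%). Over all regions 7.3% were lower and 1.08% higher. The lower lsamp region overlapped between genotypes, with up to 3.99 CPM in TRαKO and down to 2.62 CPM in WT.

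The test of whether hormone changed binding differently in the 2 genotypes used the untreated libraries as well. The T3 effect in TRαKO minus that in WT was called below 0 at 484 regions (5.18%) and above 0 at 104 (1.11%), together 6.29%. Its median over all tested regions was not at 0 but at 0.36 on the log2 scale. This median was 0.16 with TMM, 0.19 with DESeq2 and 0.70 with library sizes of all tags. A value above 0 can mean a larger gain in TRαKO or a larger fall in WT, and one below 0 the reverse. The number above 0 was 240 with library sizes of all tags, 160 with only the libraries compared, 64 with TMM, 40 with DESeq2 and 9 after thinning, where 310 were below 0. It was 169 and 163 without WT replicate 2 or 3 with T3, and 65, 57 and 59 without untreated WT replicate 1, 2 or 3. This contrast contains the libraries compared above, so the values are set side by side and no overlap of the calls is drawn. At znrf3 (166191911) binding with T3 averaged 9.04 CPM in TRαKO and 25.8 CPM in WT, and untreated binding 3.68 CPM in TRαKO and 0.725 CPM in WT. The difference in T3 effect was -3.80 ± 0.39 on the log2 scale (SE, adjusted p = 1.93e-12). Untreated TRαKO thus started above untreated WT while TRαKO with T3 ended below WT with T3. Over the 682 lower regions the median level was 4.20 CPM in TRαKO, 9.38 CPM in TRβKO and 11.2 CPM in WT with T3, and 1.55, 1.59 and 1.13 CPM in untreated TRαKO, TRβKO and WT. In these medians both untreated knockouts stood above untreated WT, which was not tested. Depth differed between these groups too, with untreated WT the deepest (12.4 to 17.1 M tags) and the untreated knockouts at 5.22 to 9.28 M tags, and its part was not tested.

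In 86 of the 682 lower regions, a set chosen after its values were seen, untreated WT was at 50% or more of WT with T3. Their median levels with T3 were 1.30 CPM in TRαKO, 1.87 CPM in TRβKO and 4.64 CPM in WT, and 1.76, 2.02 and 3.75 CPM in untreated TRαKO, TRβKO and WT. The split used the untreated WT level, so these medians describe the set and test nothing. Of the 86, 63 had no gene or only a locus name and 23 lay on chromosome 8, against 160 and 52 of the other 596. Chromosome 8 held 1010 of all 9342 tested regions. A gene name other than a LOC name was given to 5206 of all 9867 counted regions. At mdga2, a neural adhesion gene, TRαKO libraries with T3 held 0, 0.282 and 0.332 CPM, against 4.82, 1.98 and 5.69 CPM in WT; untreated means were 0.0857 CPM in TRαKO and 2.95 CPM in WT. Binding at trnat-agu, a threonine tRNA gene, averaged 2.12 ± 0.551 CPM in TRαKO, 2.50 ± 0.645 CPM in TRβKO and 11.1 ± 1.11 CPM in WT with T3, and 1.80, 1.83 and 9.72 CPM in untreated TRαKO, TRβKO and WT. Both knockouts were lower than WT there with and without hormone. The tRNA region trnal-uag differed: it averaged 64.7 CPM in TRαKO, 122 CPM in TRβKO and 143 CPM in WT with T3, and 61.8, 97.5 and 45.7 CPM in untreated TRαKO, TRβKO and WT. Reads of near-identical tRNA copies cannot be assigned to one copy with certainty, so these 2 loci are uncertain.

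**Figure D5:**
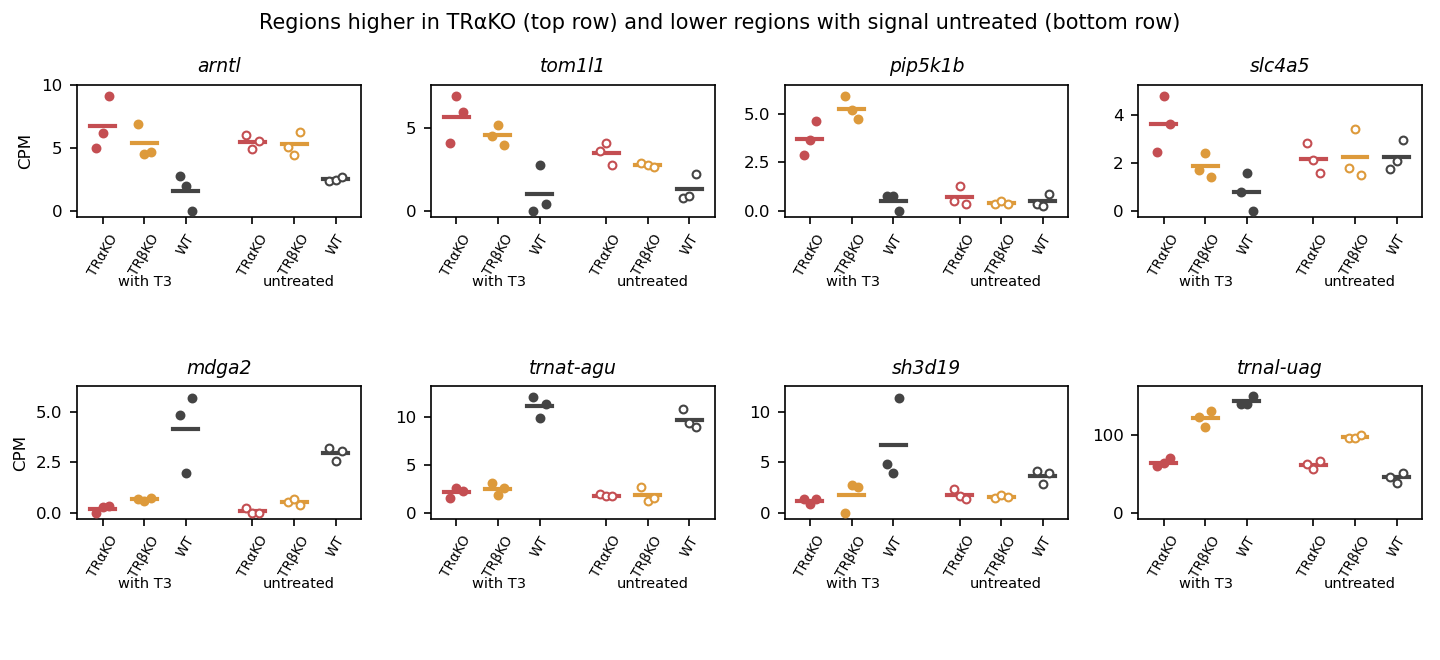
TR binding in CPM at 8 regions, with each library as a point (filled with T3, open untreated), the line at the mean of 3, and TRαKO, TRβKO and WT side by side. The top row shows regions higher in TRαKO than in WT with T3, such as arntl at 6.77 against 1.60 CPM; in the bottom row mdga2, trnat-agu and sh3d19 are low in TRαKO with and without T3, and at trnal-uag TRαKO averaged 64.7 against 143 CPM in WT with T3, and 61.8 against 45.7 CPM untreated.

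The 101 higher regions mostly had few reads in WT. Their median level with T3 was 2.71 CPM in TRαKO, 1.71 CPM in TRβKO and 0.292 CPM in WT, and 24 of them had no read in any WT library, 36 had 1 to 3 reads and 41 had more. At 99 of 101 every TRαKO library was above every WT library, against 9.16% of all tested regions. Since WT was the shallower group, a region with no WT read is bounded only by the limit that a count of 0 allows. For independent reads that limit is 3 reads over the group or 0.411 CPM. The number of higher calls was 62 without TRαKO replicate 2 and also 62 without replicate 3, 39 in the fit of the 6 libraries alone, 28 after thinning to the shallowest library, 160 with the stricter filter and 177 with library sizes of all tags. With those sizes 27.1% of the calls were higher, against 12.9% in the reported fit, and the median of all regions rose by 0.21 on the log2 scale. Only 4 of the 101 were called under every alternative, against 362 of the 682 lower regions, where a region not tested counts as not called. After thinning, 19 of the 23 higher regions tested kept the call, and 585 of the 637 lower ones. With only the 6 libraries it was 30 of 38 and 640 of 648. Without WT replicate 3, where all were tested, it was 42 of 101 and 525 of 682. The 4 regions were arntl, tom1l1, a region at the unnamed locus LOC101733468 and 1 region on an unplaced scaffold. The tek call held in the 12 of 14 alternatives that tested that region.

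Higher regions with a gene symbol and sufficient level were few. At tom1l1, the gene of an endosomal sorting protein, TRαKO libraries held 4.11, 6.91 and 5.97 CPM, against 0, 2.77 and 0.437 CPM in WT (2.35 ± 0.56, log2, SE, adjusted p = 0.00201). Untreated levels had the same order, 3.50 CPM in TRαKO and 1.34 CPM in WT. At pip5k1b, the gene of a kinase that makes phosphoinositides, the level was 3.73 CPM in TRαKO, 5.26 CPM in TRβKO and 0.531 CPM in WT with T3, and 0.736 and 0.516 CPM in untreated TRαKO and WT. The call at pip5k1b was lost without WT replicate 3 (2.19, adjusted p = 0.0658). Calls at slc4a5, stat4 and col22a1, with 3.65, 3.71 and 4.08 CPM in TRαKO and 0.795, 0.791 and 1.26 CPM in WT, were each lost without at least 1 library. For slc4a5 these were TRαKO replicate 2 (1.87) and WT replicates 1 (2.11) and 3 (1.59). The stat4 call was lost without TRαKO replicate 2 (2.14) or 3 (1.89) or WT replicate 1 (1.56) or 3 (1.61), and the col22a1 call without any of TRαKO replicates 1 to 3 (1.75, 1.68 and 1.70) or WT replicates 1 (1.12) and 2 (1.94), and after thinning (1.44). The higher regions with the most reads were at unnamed loci, of which LOC101733468 held 3, with 46.0, 41.9 and 26.5 CPM in TRαKO and 31.1, 28.2 and 16.8 CPM in WT.

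Against the other knockout under T3, binding in TRαKO was lower than in TRβKO at 584 regions (6.25%) and higher at 386 (4.13%), together 10.4%, with a median over all regions of 0.39. The number higher was 190 with TMM and 156 with DESeq2, 201 with only the libraries compared, 102 after thinning and 238 without TRαKO replicate 2. With library sizes of all tags more regions were higher (550) than lower (517). The main targets were lower in TRαKO here too. At thibz the difference was -1.01 ± 0.16 (log2, SE, adjusted p = 2.24e-06) and at thrb (46932899) -1.35 ± 0.18 (adjusted p = 3.07e-08). The largest difference among the regions named was at gmppa, 1.16 CPM in TRαKO and 13.4 CPM in TRβKO (-3.57 ± 0.46, log2, SE, adjusted p = 5.31e-09). The klf9 region at 129859818, not called against WT, was lower than in TRβKO (7.09 ± 0.35 against 15.9 ± 2.33 CPM, adjusted p = 0.000986). In contrast, at aldoa TRαKO averaged 3.84 CPM and TRβKO 6.97 CPM, a difference that was not called (-0.84 ± 0.35, log2, SE, adjusted p = 0.115). The gata5 region at 4922621 (3.56 CPM in TRαKO and 5.52 CPM in TRβKO) and acsl4 (7.86 CPM in TRαKO and 12.6 CPM in TRβKO) were likewise not called. The card19 region was lower in TRαKO (9.27 CPM, against 16.2 CPM in TRβKO, adjusted p = 0.00717). At aldoa, gata5, acsl4 and card19 WT with T3 stood at 20.6, 14.1, 26.5 and 44.5 CPM, above both knockouts.

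Mitochondrial regions served as a view of reads outside nuclear chromatin, and all 7 were lower. Their summed level was 250 to 268 CPM in TRαKO, 763 to 832 CPM in TRβKO and 396 to 427 CPM in WT with T3. The log2 differences of TRαKO minus WT ranged over -1.19 to -0.39. The region at CYTB (14474) was not called under TMM, DESeq2 or all-tag scaling, nor without TRαKO replicate 2 (-0.37) or WT replicate 1 (-0.34), and the ND1 region at 109 not under all-tag scaling. These levels move with the groups, and their part in the nuclear results was not tested. The median log2 difference over the 682 lower regions was -1.50.

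Over all regions, the share of tags that lay in counted regions was 2.21%, 2.41% and 2.41% in the TRαKO libraries, against 2.90%, 2.83% and 2.96% in WT with T3. The difference of -0.555 percentage points had an exact two-sided permutation p of 0.1, the smallest that 3 libraries against 3 allow. Per 100 tags before the duplicate filter the difference was -0.146. The authors' peak lists ran in the opposite order, with 3039, 6565 and 4592 peaks in the TRαKO libraries and 806, 959 and 911 in the WT libraries (exact p = 0.1). The TRαKO group was also the deeper one, and depth and genotype cannot be told apart in this difference. Within TRαKO the deepest library, with 8.02 M tags, had the fewest peaks and also the lowest share of tags in counted regions (2.21%). What set the number of peaks was not tested. Of 380 regions with a peak in at least 2 libraries of both genotypes, 322 were lower in TRαKO and none higher. Among the 1639 tested regions with such peaks in TRαKO but not in WT, 55 were higher (3.36%) and 24 lower (1.46%). Of the 159 with such peaks in WT but not in TRαKO, 140 were lower and 0 higher. The largest class, 7164 tested regions with such peaks in neither genotype, held 196 lower (2.74%) and 46 higher (0.642%) regions. Its median levels with T3 were 1.82 CPM in TRαKO and 1.78 CPM in WT. Calls in this class are differences in reads at regions without a reproducible peak in these 6 libraries. Over all regions 1.08% were higher and 7.3% lower. The peaks were called in the same libraries, so these classes are no independent evidence of the direction.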

How the data were processed

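TR ChIP-seq libraries of tadpole intestine, 18 in all with 3 in each of 6 groups, were used. Counts are the authors' raw DiffBind counts per region, as deposited in 1 table for all libraries. Per the submitters' processing notes, Bowtie2 2.3.4.1, MACS2 2.1.1.20160309 and DiffBind were used; the genome build is not given in the sources used here. Per the file headers, peaks were called by MACS 2.2.7.1 in each library without a control, keeping 1 tag per position, with a q limit of 0.05 and an assumed genome size of 2.7e+09. The deposited peak lists also hold pileup (a coverage signal), fold enrichment (a ratio) and -log10 p and q values; the -log10 q was used for 1 count of peaks, and the others describe peaks only. Chromosome codes of the count table were resolved by overlap with the peaks. Columns that match no sample numbered 0.

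edgeR 4.0.16 (R 4.3.3, limma 3.58.1) fitted a robust quasi-likelihood model to all 18 libraries with 6 group means, library sizes being the tags after the duplicate filter in each peak file's header. filterByExpr kept 9342 of 9867 regions, and p-values were adjusted over all of them (Benjamini-Hochberg, threshold 0.05). SE is the absolute log2 fold change divided by the root of F. The fit was tested on simulated data. Alternatives were TMM, all-tag library sizes, DESeq2 1.42.0, other filters, the compared libraries alone, thinning to the shallowest library, a replicate block and leaving out each library. Tables and figures used Python 3.11.15, numpy 2.4.6, scipy 1.17.1, pandas 2.3.3 and matplotlib 3.10.9.

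Gene names and neighbours came from RefSeq's table of UCB_Xtro_10.0: the gene whose body a region overlaps, otherwise the nearest within 10 kb. Coordinates are those of the deposited files. Of the regions, 11.4% lay within 1000 bp of a gene end, against 7.00% to 8.11% after shifting them. No sequence was used. Up to 15 regions per direction and 12 by level were named among called, non-overlapping regions with a gene symbol and at least the median level, besides 15 genes always named and 4 per list; bare locus names were left out. Other genes were named after their values were seen. Some genes that this rule or the lists name are not reported here. The members and the 20 lists were chosen with earlier results of these data known.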

Additional observations from a re-analysis of the deposited data

Results flagged for a closer look

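At the following regions the effect of T3 differed between TRαKO and WT by edgeR's quasi-likelihood interaction test (TRαKO effect minus WT effect, log2; adjusted p under 0.05 over all regions). Each value contains the libraries of the comparison with T3, and no explanation was tested. The untreated libraries enter each value as well, so its size is not that of the difference with T3. Over all tested regions the median of this value was 0.36. With T3 alone, TRαKO minus WT was -1.45 at thibz and -1.20 at nr3c2. At receptor genes the difference was -2.38 and -2.91 at thra (9096138 and 9098324), -3.03, -2.20 and -2.67 at thrb (46698245, 46899379 and 46932899), -1.85 and -2.71 at rara (8776770 and 8790066) and -1.29 at nr3c2. At genes of chromatin enzymes it was -3.26 at dot1l, -3.27 at kdm6b (147034252), and -1.80 and -2.70 at ezh2 (55124177 and 55124943). For the transcription factor genes thibz, klf9 (129859818) and cdx1 (21125770) it was -2.44, -1.90 and -2.20. At znrf3 (166191911) it was -3.80 and at lgr4 (21092281) -2.04. The remaining values were -2.38 at dpp4 and -3.27 at fas. Of these, the klf9 and lgr4 regions were not called between TRαKO and WT with T3.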

How the results depend on the processing

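Of the 69 named lower regions 54 kept their call under each alternative that tested them and 15 lost it under at least one; of the 9 named higher regions 3 kept it, and none reversed. Of those that kept it, mdga2 was tested in 10 of 14 alternatives, tek in 12, and tmem168 and gadl1 in 13. For TRαKO minus WT with T3, the number of higher regions (101) was 177 with library sizes of all tags, 160 with the stricter filter, 39 with only the libraries compared and 28 after thinning to the shallowest library, where 1935 regions were tested. For the difference in T3 effect, the number higher (104) was 64 with TMM, 240 with all tags, 40 with DESeq2, 160 with only the libraries compared and 9 after thinning; thinning also gave 319 calls in all and 310 lower, against 588 and 484. With all tags 40.7% of those calls were higher, against 17.7%. For TRαKO minus TRβKO with T3, the number higher (386) was 190 with TMM, 156 with DESeq2, 201 with only the libraries compared and 102 after thinning, and the share higher of all calls (39.8%) was 21.0% with TMM, 17.9% with DESeq2 and 51.5% with all tags. Leaving out 1 library gave 62 to 130 higher regions against WT, 57 to 169 for the T3 effect and 238 to 344 against TRβKO. The T3 effect count passed 1.5 times its reported value without WT replicate 2 (169) or 3 (163) with T3, and fell short by as much without untreated WT replicate 1 (65), 2 (57) or 3 (59); against TRβKO it did so without TRαKO replicate 2 (238). The cause was not tested. Numbers of lower regions otherwise stayed within 1.5 times the reported ones. Against WT, the number lower (682) ranged from 477 with library sizes of all tags to 744 with only the libraries compared, and was 582 with TMM. For the T3 effect, the number lower (484) was 349 with all tags and 660 with DESeq2.

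Whether replicate numbers pair the samples was not settled. Deviations of same-numbered TRαKO and WT libraries with T3 had correlations of 0.02, 0.02 and -0.003, and different-numbered ones -0.028 to 0.012. Against TRβKO with T3 same-numbered libraries had 0.019, 0.018 and 0.038, and different-numbered ones -0.031 to 0.013. Counting error pulls such correlations toward 0, so they cannot exclude a pairing. With the replicate as a block, 740 regions were called against WT (90 higher and 650 lower), 540 for the T3 effect and 923 against TRβKO. WT with T3 had the fewest tags. A region with no read there may hold up to 0.411 CPM if reads are independent, and more if they are not.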
